A study of Apis mellifera with 27 samples.

Results

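Unnamed genes whose transcript level was lower in colony 2 than in colony 1 at every time point of the rule were examined in honey bee (Apis mellifera) brain tissue. They are 58 of the 12319 genes in the count table, and 0.82% of the 7069 unnamed genes with a mean of at least 10 CPM (the gene's count divided by the library's total and scaled up to a fixed total). The 58 genes were chosen by measured values: over 6 time points the mean log2(CPM + 1) of colony 2 minus that of colony 1 was at most -0.2 at each, and averaged at most -0.7. These differences are therefore given as a description, with no test. Only the first time point and the features of the gene models were not used in choosing the genes, apart from the level minimum, which used all libraries. The course over the day was not itself a limit of the rule, but it shares most of its libraries with it.

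Foragers were trained to a feeding time and collected over a circadian day, and tissue enriched for small Kenyon cells was cut from the mushroom bodies by laser capture. Polyadenylated RNA was sequenced at 06:00, 10:00, 14:00, 18:00, 22:00, 02:00 and 06:00, from day 11 to day 12 of the experiment, in 2 colonies whose behavioural experiments were run separately. Each colony and time point has 2 libraries, except 06:00 of day 11 in colony 2 with 1, so that 14 libraries are from colony 1 and 13 from colony 2. The labels name no strain, age, allele or agent, and the bees of both colonies were time-trained. Colony and experimental run cannot be told apart in this design. The labels do not tie libraries to single bees, so p-values cover no more than the spread between the libraries, part of which may be technical.

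Kenyon cells are the intrinsic neurons of the mushroom bodies, insect brain centres where odour, colour and time information meets reward. Small Kenyon cells sit in the centre of the calyx and are studied in bees for their part in foraging memory. A colony is a family with 1 queen and many fathers, so workers of different colonies differ in genotype and in rearing. An identifier made of LOC and a number marks a gene that has no accepted symbol. No product was given for these genes in the sources used here, so none of the 58 is assigned a function or a role. In bulk tissue, fewer cells of a type and less RNA per cell cannot be told apart.

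Library totals ran from 5589770 to 12277539 counts, with 8732841 to 12277539 in colony 1 and 5589770 to 10846551 in colony 2. On the first principal component of all tested genes 3 colony 2 libraries stood apart, 06:00 day 11 C2R2, 10:00 C2R1 and 10:00 C2R2, where C is colony and R replicate, with scores of 66.0 to 94.7. The 7 small Kenyon cell markers that could be matched, among them Tk and E74, summed to 2777 to 3648 CPM in colony 1 and to 1160 to 3892 CPM in colony 2. The lowest value was that of 06:00 day 11 C2R2, in which the 4 large and middle Kenyon cell markers were also lowest (2437 CPM, against 5670 CPM or more in colony 1). Muscle markers, the troponin genes, summed to up to 676 CPM in colony 2, in 10:00 C2R1, and up to 175 CPM in colony 1. In the 3 libraries standing apart, TpnCIIIa was at 52.7 to 273 CPM (colony 1 mean 19.4 CPM) and TpnI at 46.1 to 140 CPM (colony 1 mean 14.9 CPM), while TpnCIIb, near 0 in colony 1 too, was at 0. TpnCIIIb went the other way there, at 2.15 to 4.49 CPM (colony 1 mean 6.52 CPM). Photoreceptor markers reached 399 CPM in colony 2 and 176 CPM in colony 1, and the single glial marker matched, Eaat-2, 205 and 169 CPM. Of the photoreceptor markers, Lop1 had means of 165 CPM in colony 2 and 51.0 CPM in colony 1. Over the 6 time points of the rule, 2 of the 4 were lower in colony 2. Gland, fat body and hemolymph markers, of which 19 were matched, reached 1664 and 1066 CPM. Fabp made up most of the colony 2 value, at 1308 to 1530 CPM in the 3 libraries standing apart. Over the 6 time points of the rule, 14 of the 19 were lower in colony 2, with a median difference of -0.10. The part of these cell types in the results below was not tested.

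The sign of the difference was steady by construction, but its size was not. The median of the 58 differences was -1.53 at 10:00, -0.97 at 14:00, -0.78 at 18:00, -0.67 at 22:00, -0.53 at 02:00 and -0.66 at 06:00 of day 12. The medians of the 7069 unnamed genes at those times lay between -0.19 and 0.04. With TMM scaling, which corrects for composition, the members' median was -1.44 at 10:00 and -0.72 at 06:00 of day 12. At 10:00, where both colony 2 libraries stand apart, 44 of the 58 had their largest fall among the 6 time points, against 34.8% of the unnamed genes. Over 14:00 to 06:00 of day 12 alone, the mean difference was at most -0.7 in 28 of the 58.

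**Figure D1:**
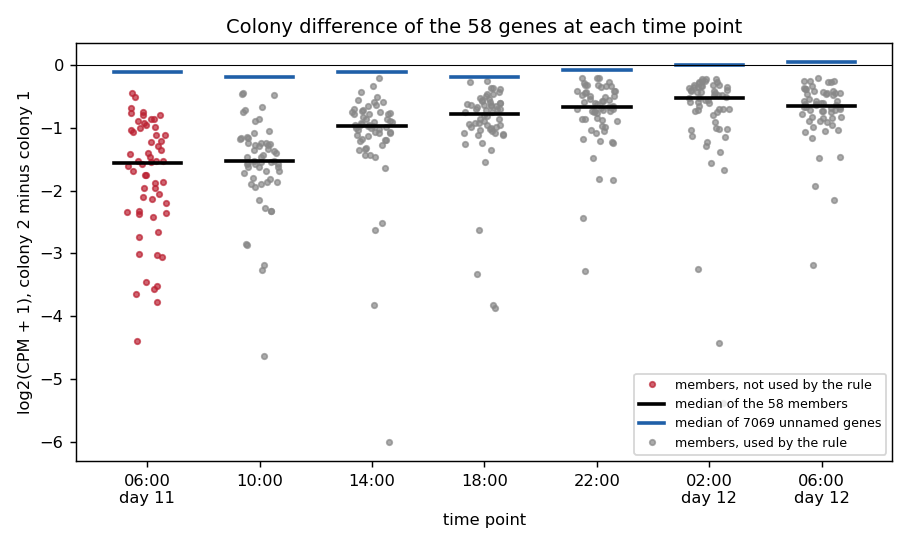
Colony 2 minus colony 1 difference in mean log2(CPM + 1) of each of the 58 genes (points) at the 7 time points, with the members' median (black bar) and the median of 7069 unnamed genes (blue bar). Red points, at 06:00 of day 11, were not used to choose the genes. The members' median moves from -1.56 at 06:00 and -1.53 at 10:00 of day 11 to -0.53 at 02:00 of day 12.

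Library by library, the median member was 0.34 to 1.67 below its colony 1 mean in every colony 2 library, on the log2(CPM + 1) scale. The lowest medians were -1.67 in 06:00 day 11 C2R2, -1.57 in 10:00 C2R1, -1.47 in 10:00 C2R2 and -1.21 in 14:00 C2R1. These 4 libraries also had the 4 highest scores on the first principal component, the last of them 45.0. The smallest shifts were -0.34 in 02:00 C2R2 and -0.36 in 06:00 day 12 C2R1. Colony 1 libraries lay between -0.18 and 0.21. In 06:00 day 11 C2R2, not used for the differences, all 58 genes were below their colony 1 mean, where the median of the unnamed genes was -0.10. So were all 58 in both 10:00 libraries of colony 2, and 50 of the 58 in 02:00 C2R2. The rule used these 10:00 and 02:00 libraries, and the colony 1 mean of each gene takes in libraries that the rule used. Nothing is therefore read from any of these counts of genes below that mean.

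**Figure D2:**
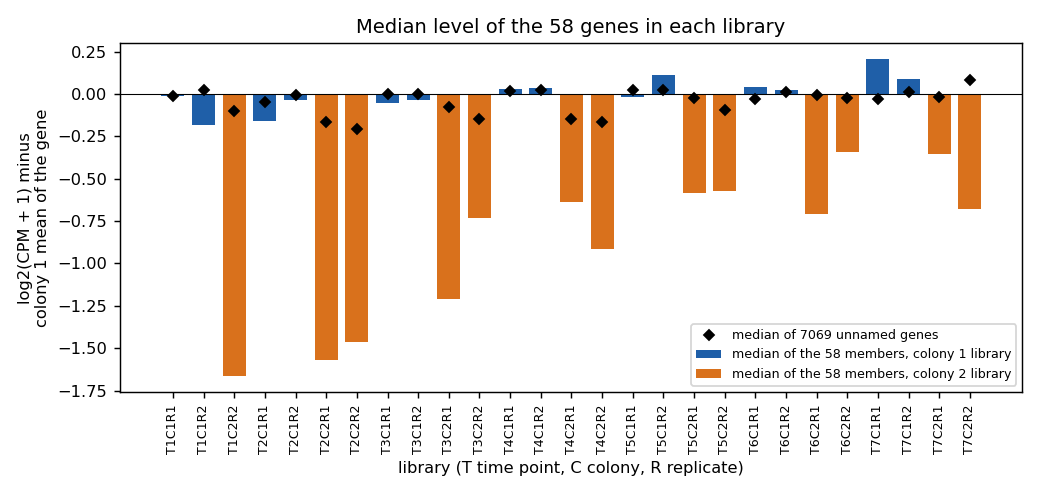
Median over the 58 genes of log2(CPM + 1) minus the gene's colony 1 mean, for each of the 27 libraries (bars, blue for colony 1 and orange for colony 2), with the same median over 7069 unnamed genes (diamonds). Every colony 2 bar is below 0, from -0.34 to -1.67, while the diamonds stay between -0.21 and 0.08.

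Groups that do not overlap were rare even among these genes. All 13 colony 2 libraries lay below all 14 colony 1 libraries in 2 of the 58, LOC409999 and LOC113218542, where 0.113% of the unnamed genes did so. From 14:00 to 06:00 of day 12, 10 of the 58 had no overlap, where 0.382% of the unnamed genes did. Because the rule used these differences, nothing is read from either count. Replicate libraries differed by a mean of 0.23 (median over the 58, log2 scale) in colony 1 and 0.53 in colony 2. The medians over all 7069 unnamed genes were 0.17 and 0.31.

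LOC409999 was the 1 gene with a mean difference below -2 whose colonies did not overlap. It was at 13.3, 17.7 and 22.98 CPM in colony 1 (lowest, median and highest library) and at 0.481, 3.11 and 9.71 CPM in colony 2. The means were 18.1 ± 2.90 (SD, n = 14) and 3.38 ± 2.42 CPM (SD, n = 13), a ratio of 5.35. Its mean over all libraries, 11.0 CPM, passed the level minimum only through colony 1. The lowest colony 2 value, that of 10:00 C2R2, rests on 3 counts, as many as a count of 0 allows. The difference was between -2.86 and -1.13 at the 6 time points. Its colony 1 replicates differed by a mean of 0.22 on the log2 scale, and its highest colony 2 value came from 02:00 C2R2.

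LOC406142 had the lowest mean difference of all 58, -4.02, with a far wider spread. Colony 1 libraries ran from 34.1 through a median of 126 to 1217 CPM, and colony 2 libraries from 0 through 3.94 to 186 CPM. The groups overlapped, since 06:00 day 11, 14:00, 22:00 and 06:00 day 12 each had a colony 2 R2 library above 60 CPM. It had 0 counts in 10:00 C2R2 and 02:00 C2R1, which allows up to 0.481 and 0.363 CPM for counting error alone. Its model overlaps that of LOC552342 in the RefSeq annotation, whose own mean difference was -0.15.

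LOC408807 came next, with a mean difference of -3.18, and was at 5.12, 105 and 701 CPM in colony 1 and at 0, 4.65 and 90.7 CPM in colony 2. The 2 colony 1 libraries of 10:00, with 7.15 and 5.12 CPM, were the lowest of that colony and below the highest colony 2 values. Replicates of the same colony and time differed by a mean of 2.48 in colony 1 and 3.41 in colony 2 on the log2 scale, and by 1.65 and 3.37 in LOC406142. In both genes the mean gap between colony 2 replicates was thus close to the colony difference itself, or above it.

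Apid1, an antimicrobial peptide gene of the apidaecin type on the list of gland, fat body and hemolymph markers, is set beside these 2 genes and was singled out after its values were seen. The highest colony 1 library was 14:00 C1R2 for all 3 genes, with 1217 CPM of LOC406142, 701 CPM of LOC408807 and 65.4 CPM of Apid1. The other colony 1 libraries did not share an order: 14:00 C1R1 was second for Apid1, with 29.0 CPM, and 12th of 14 for LOC406142, with 53.0 CPM. In 06:00 day 12 C1R2, LOC406142 was second, with 698 CPM, and LOC408807 10th, with 18.2 CPM. In colony 2 the same 3 of the 13 libraries were highest for each gene, namely 14:00 C2R2, 22:00 C2R2 and 06:00 day 12 C2R2. Apid1 was at 23.1, 6.85 and 4.71 CPM there, and 02:00 C2R1 had 0 counts of all 3 genes. Apid1 had medians of 11.0 CPM in colony 1 and 0.544 CPM in colony 2, and a mean difference of -2.08. Def1, the gene of the antimicrobial peptide defensin, did not share this pattern: its medians were 21.8 and 15.4 CPM, and its difference was above 0 at 1 or more time points, up to 1.86.

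LOC100577894, the fourth gene with a mean difference below -2, was at 2.03, 25.9 and 56.4 CPM in colony 1 and at 0, 6.27 and 13.6 CPM in colony 2. Its low colony 1 values were those of 22:00, 2.03 and 10.6 CPM. At that time the difference was its smallest, -0.57, and at 18:00 it was its largest, -3.87.

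**Figure D3:**
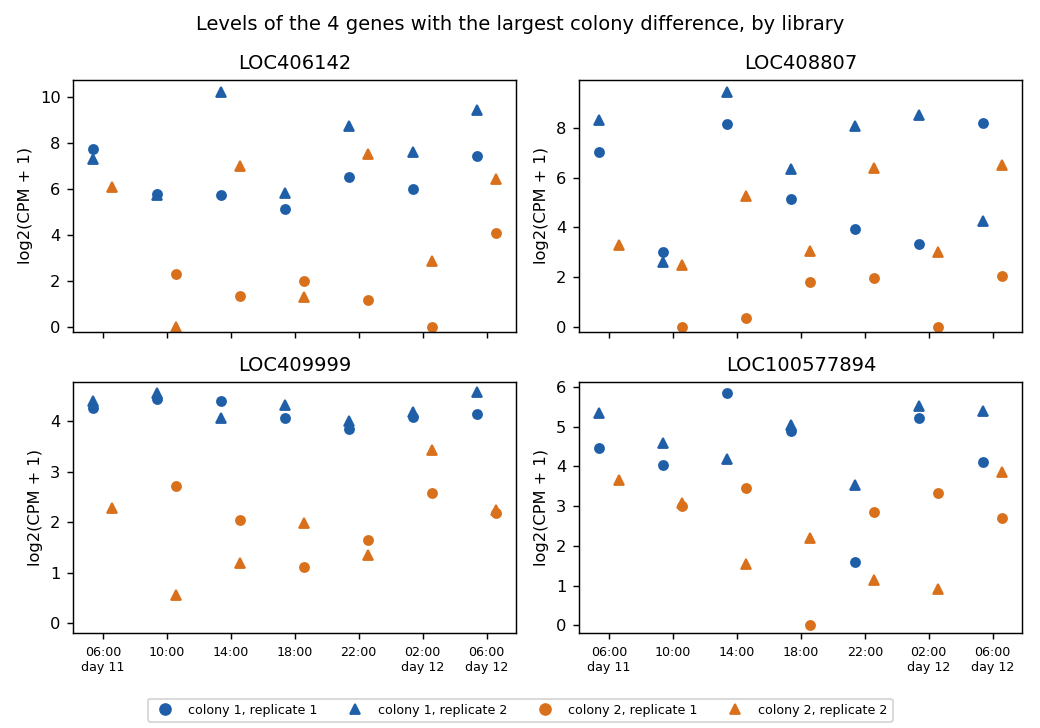
log2(CPM + 1) in each library of LOC406142, LOC408807, LOC409999 and LOC100577894 by time point, colony 1 in blue and colony 2 in orange, circles for replicate 1 and triangles for replicate 2. LOC409999 separates the colonies in all libraries, while LOC406142 and LOC408807 have colony 2 libraries at up to 186 and 90.7 CPM beside others at 0.

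A further 12 genes had a mean difference between -2 and -1. The largest was that of LOC551433, -1.29, with 23.3, 41.2 and 68.4 CPM in colony 1 and 6.41, 17.3 and 26.5 CPM in colony 2. Its overlap came from 1 colony 1 library, 06:00 day 12 C1R1, at 23.3 CPM. LOC113218542, one of 2 long noncoding RNAs among the members, was at 22.4, 25.6 and 34.4 CPM in colony 1 and at 2.94, 11.0 and 17.3 CPM in colony 2. In contrast to most members its fall was largest at 22:00, -1.83, and smallest at 10:00, -0.48. LOC411414 was at 37.9, 78.3 and 110 CPM against 7.36, 25.5 and 64.6 CPM, and LOC100577938 at 13.6, 24.98 and 47.0 CPM against 3.61, 12.0 and 22.5 CPM.

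Most genes of that range had their largest fall at 10:00, and 3 of them are given next. LOC100578170 was at 33.7, 61.3 and 75.1 CPM in colony 1 and at 0, 26.01 and 49.5 CPM in colony 2, and its 0 came from 10:00 C2R1. Its difference shrank from -3.26 at 10:00 to -0.26 at 06:00 of day 12. LOC100577359 had a difference of -2.85 at 10:00 and -0.83 as its mean over the later times, and its colonies overlapped (5.04 to 19.5 CPM and 0 to 16.0 CPM). LOC552276 had medians of 18.4 and 7.20 CPM and went from -2.28 at 10:00 to -0.37 at 06:00 of day 12. LOC724865 also fell most at 10:00, -1.62, but by nearly as much at 22:00, -1.49, and at 02:00, -1.57. Its difference was smallest at 18:00, -0.25. Its medians were 24.9 CPM in colony 1 and 13.7 CPM in colony 2.

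The remaining 42 genes had mean differences between -0.95 and -0.70, and colony 2 means of 0.482 to 0.667 times those of colony 1. The members with the most reads, by CPM that is not scaled for transcript length, are all in this class. LOC411009 was at 235, 266 and 351 CPM in colony 1 and at 28.8, 133 and 281 CPM in colony 2. LOC409781 was at 211, 251 and 298 CPM against 18.8, 185 and 235 CPM. LOC409539 had nearly separate groups, with 190, 244 and 273 CPM against 72.6, 160 and 191 CPM. LOC726021 had medians of 204 and 117 CPM, and LOC724962 of 186 and 96.3 CPM.

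The members just inside the mean limit were LOC551573, LOC102654111 and LOC408554, at -0.711, -0.7006 and -0.7001. Just outside it were LOC408271, LOC411694 and LOC550708, at -0.697, -0.694 and -0.692. A further 33 unnamed genes met the limit on the mean but missed 1 of the 6 single differences, among them LOC100578121 with a mean of -1.30 and a smallest difference of -0.190. Below the level minimum, 47 genes met the other limits, with LOC410994 the nearest at 9.23 CPM. The mirrored rule, for genes higher in colony 2, gave 12 genes.

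The first time point asked whether the 58 genes were lower in a colony 2 library that had no part in their differences. That library stood apart on the first principal component, with a score of 77.6. So did both colony 2 libraries of the next time point (94.7 and 66.0), which the rule used. Of the rule's time points, that next one held the largest fall of 44 of the 58. Low values at the first time point are therefore no independent check of a colony difference. The part of what these libraries share was not tested. At 06:00 of day 11 all 58 had a negative difference, from -4.39 to -0.46 with a median of -1.56, where 54.0% of the unnamed genes were below 0 and their median was -0.11. The colony 2 library lay below both colony 1 libraries in 57 of the 58, where 50.3% of the unnamed genes did. The exception was LOC100577359. A difference of at most -1 was reached by 45, where 21.3% of the unnamed genes reached it.

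In edgeR's quasi-likelihood test of the first time point, 36 of the 58 were lower in colony 2, which is 62.1% of them, beside 21.8% of all 9816 genes tested. None of the 58 was called higher, beside 16.3% of all genes, so that 38.1% of all genes were called in either direction in this one library. The test sets 1 library against 2 and takes its spread from the other groups. The limit given above for that library holds for these calls too. DESeq2 called 39 of the 58 lower (67.2%), beside 24% of all genes, and limma-voom 36 (62.1%), beside 22.1%. A permutation of 3 libraries cannot give an exact p below 0.3333. The median log2 difference was -1.57 over the 58 and -0.04 over all genes.

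The smallest p-value belonged to LOC551869, at 18.2 CPM in 06:00 day 11 C2R2 and at 139 and 117 CPM in the colony 1 libraries (log2 difference -2.74, SE 0.238, adjusted p = 6.08e-08). LOC408857 was at 7.58 CPM against 94.5 and 101 CPM (-3.62, SE 0.348, adjusted p = 1.21e-07). LOC724852 was at 8.60 CPM against 129 and 131 CPM (-3.85, SE 0.436, adjusted p = 1.49e-06). These values of the colony 2 library lie far below the lowest colony 1 library of any time in all 3 genes. LOC411597 (-4.11, SE 0.527), LOC409781 (-3.56, SE 0.429), LOC409539 (-1.48, SE 0.203), LOC409970 (-2.38, SE 0.332) and LOC411315 (-3.12, SE 0.444) followed.

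Of the 4 genes with the largest mean differences, LOC409999 alone was called at this time, with 3.85 CPM in colony 2 against 18.2 and 20.1 CPM (-2.24, SE 0.825, adjusted p = 0.0345). That call was lost in 2 of 31 alternative runs. LOC406142, at 68.4 CPM against 214 and 160 CPM, had a difference of -1.38 with SE 2.29 (adjusted p = 0.671). LOC408807 and LOC100577894 had adjusted p = 0.278 and 0.530. LOC411414 (-3.55, SE 0.561) and LOC113218542 (-3.33, SE 0.547) were lower, and LOC100577938 and LOC552276 only just so, with adjusted p = 0.0489 and 0.0472. The calls of LOC100577938 and LOC552276 were lost in 21 and 17 of 31 alternative runs.

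Kenyon cell markers were low in the same library. All 7 small Kenyon cell markers had a negative difference at 06:00 of day 11, from -2.17 for Tk to -0.26 for Ks-1, and so had all 4 large and middle Kenyon cell markers, with DopR2 at -2.80 and Camkii at -1.41. Over the other 6 time points those lists had median differences of 0.08 and 0.08, with 3 of 7 and 2 of 4 genes below 0. Markers of other cell types were high in the library of 06:00: the median difference was 1.95 over the 4 photoreceptor markers (1 of 4 below 0), 1.63 over the 7 muscle markers (1 of 7 below 0) and 1.38 for Eaat-2. The 19 gland, fat body and hemolymph markers had a median of 0 and 7 below 0. The share of each cell type in that library and its part in the members' values were not tested.

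**Figure D4:**
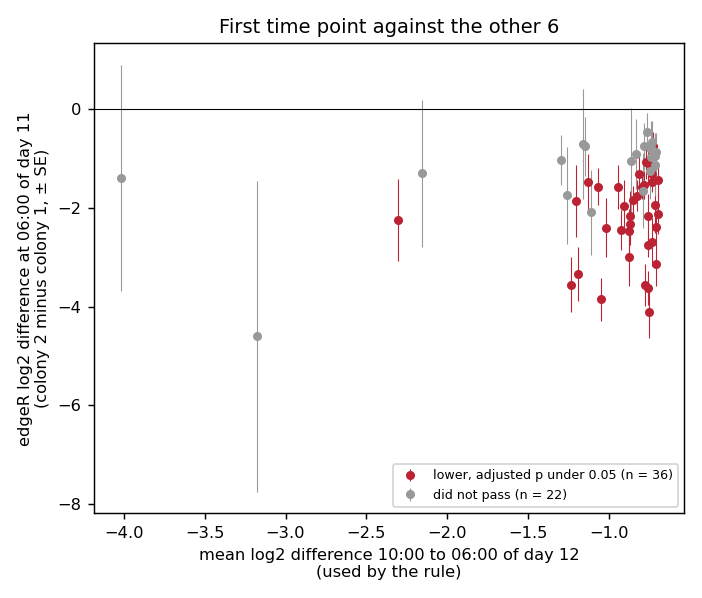
edgeR log2 difference at 06:00 of day 11 with its SE (vertical axis) against the mean difference over the other 6 time points that chose the genes (horizontal axis) for the 58 genes, those called lower at the first time point in red. All 58 points lie below 0 on the vertical axis, and the leftmost, LOC406142, has an SE of 2.29.

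Change over the day was tested with colony as a term. LOC551717 was the 1 gene of the 58 that changed over the 7 time points (adjusted p = 0.0483, edgeR's quasi-likelihood test), which is 1.72% of them beside 2.29% of all genes. At an unadjusted p under 0.05 there were 14 (24.1%), beside 16.8% of all genes. DESeq2 called 7 (12.1%), beside 8.23%, and limma-voom 17 (29.3%), beside 18.8%. The members' share was below that of all genes in edgeR's calls, which rest on 1 gene, and above it in the other counts, so no direction is read. Without the 3 libraries standing apart edgeR called 1 of the 58 (1.72%), beside 2.8% of all genes. At an unadjusted p under 0.05 there were then 9 (15.5%), with no share of all genes given for that setting. In colony 1 LOC551717 was at 34.3 and 36.8 CPM at 10:00 and at 73.2 and 55.4 CPM at 02:00, and in colony 2 at 8.59 and 17.9 CPM and at 49.6 and 41.2 CPM. Both colonies had their lowest mean at 10:00 and their highest at 02:00. The call was lost in 25 of 33 alternative runs.

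A 24 h cosine was called for 2 of the 58 over both colonies, LOC552276 and LOC724962, which is 3.45% of them beside 4.31% of all genes. At an unadjusted p under 0.05 there were 11 (19.0%), beside 21.3%, and DESeq2 called 4 (6.9%), beside 9.23%. LOC552276 peaked at a clock time of 1.61 h with a peak-to-trough fold of 2.44 (adjusted p = 0.0435), and LOC724962 at 23.3 h with a fold of 2.02 (adjusted p = 0.0442). LOC552276 was at 12.2 and 14.5 CPM at 10:00 and 24.7 and 19.5 CPM at 02:00 in colony 1. The colony 2 libraries held 1.97 and 1.92 CPM at 10:00 and 9.43 and 17.6 CPM at 02:00. These calls were lost in 20 and 22 of 33 alternative runs, and without the 3 libraries standing apart 4 of the 58 (6.9%) were called, beside 8.75% of all genes.

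In colony 1 alone, where replicates lay closer together, 4 of the 58 (6.9%) had a cosine, beside 5.4% of all genes. DESeq2 called 5 (8.62%), beside 10% of all genes, and limma-voom 3 (5.17%), beside 6.42%. LOC408857 peaked at 12.9 h with a fold of 1.47 (adjusted p = 0.0174) and was the 1 gene whose call held in all 19 alternative runs. It was at 154 and 151 CPM at 10:00 and at 101 and 92.6 CPM at 02:00. LOC551717, LOC100578170 and LOC552276 peaked at night instead, at 23.3, 1.11 and 2.19 h, with folds of 1.64, 1.60 and 1.75 (adjusted p = 0.0320, 0.0346 and 0.0378).

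**Figure D5:**
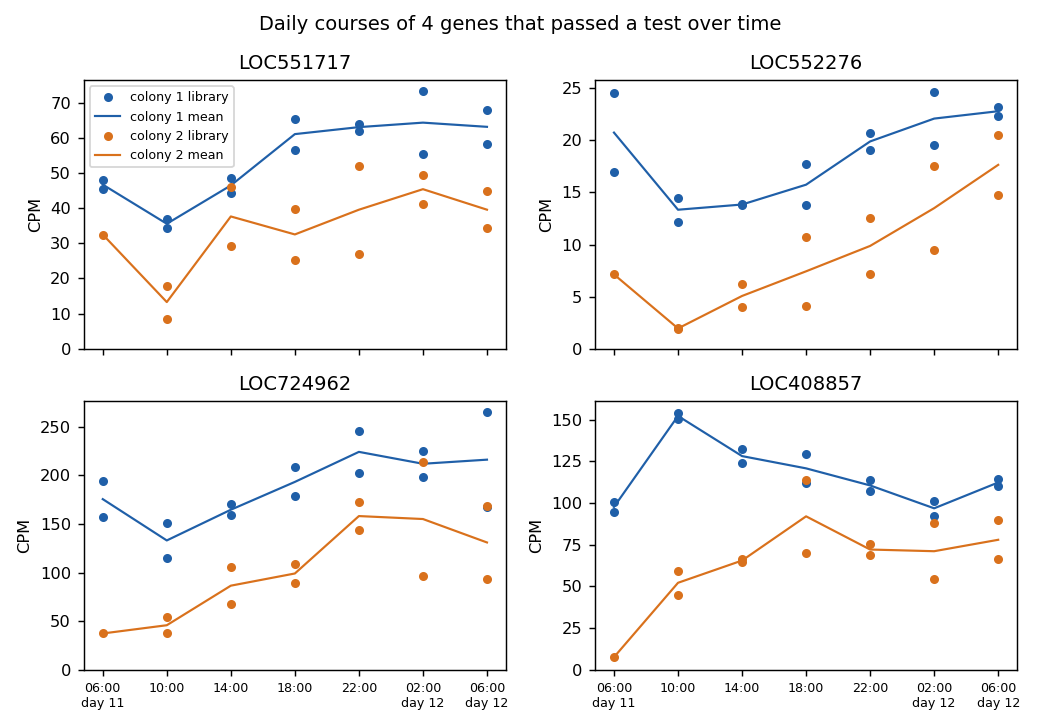
CPM of LOC551717, LOC552276, LOC724962 and LOC408857 in each library (points) and as the mean of each colony (lines) by time point, colony 1 in blue and colony 2 in orange. In colony 1, LOC408857 is highest at 10:00 (154 and 151 CPM), where LOC551717 is lowest (34.3 and 36.8 CPM).

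The gene models of the 58 were long. In the RefSeq annotation of Amel_HAv3.1 all 58 identifiers matched, 56 as protein-coding and 2, LOC113218542 and LOC100577945, as long noncoding RNAs. The lncRNA share was 3.45%, beside 1.97% of the unnamed genes. The median length from start to end of the model, introns included, was 11636.5 bases in the members and 3931 in the 7069 unnamed genes. With the unnamed genes split into 4 classes of equal size by length, the longest class held 32 members and the shortest 3, namely 1.81% and 0.170% of their genes. Across all unnamed genes the median difference at 06:00 of day 11 also went with length, 0.56 in the shortest class and -0.80 in the longest, while at 10:00 the medians were 0.09 and -0.23. The longest member, LOC100577945, spans 274124 bases and was at 26.7, 44.3 and 73.9 CPM in colony 1 and at 9.96, 20.7 and 33.9 CPM in colony 2. The 4 genes with the lowest mean differences were all below the members' median length, at 1640, 1377, 4268 and 10394 bases.

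The members had a median level of 43.4 CPM, beside 71.7 CPM for the unnamed genes. No 2 members were next to each other or separated by 1 gene in gene order, and wider gaps were not searched. LOC724852 and LOC113218542, on chromosome 2, had only LOC102654200 and LOC102654142 between them. Of the 116 genes next to a member, 71 reached 10 CPM, and their median difference was -0.13, beside -0.10 for all 7302 genes at that level. Among those 71, 1 had a mean difference of at most -0.7 (1.41%), beside 1.67% of all genes at that level. LOC408271, next to LOC410178, missed that limit narrowly, at -0.697. The models of 19 members overlapped that of the next gene, as LOC410613 does with Adar. This is not a full count, since LOC550677 overlapped LOC724172 and LOC411414 overlapped LOC100577407, which lie further off in gene order. The same share among all unnamed genes was not counted. Without a stated strand setting the reads of overlapping models cannot be told apart with certainty. Adar, which edits adenosines in RNA, had a difference of 0.28, against -0.79 in LOC410613.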

How the data were processed

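The authors deposited whole-number read counts per gene for 27 libraries made with a stranded poly(A) kit, per the labels' protocols. Trimmomatic, FastQC, STAR, featureCounts and DESeq2 are named, without versions, per the submitters' processing notes. The genome build, annotation and strand setting are not given in the sources used here. Gene models, types and neighbours come from a RefSeq table of Amel_HAv3.1, and no coordinates are given. Replicate 1 of colony 2 at the first time point was not analysed here. Printed CPM are counts over the library total. A count of 0 allows up to 3 counts, for counting error only. Replicate libraries differed beyond sampling noise (chi-square per degree of freedom of at least 11.1).

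Low counts were filtered with filterByExpr by time point, which left all 58 members, and libraries were scaled by TMM (edgeR 4.0.16, R 4.3.3). The tests (glmQLFit, robust, and glmQLFTest) were colony 2 minus colony 1 at 06:00 of day 11 in a model with 1 mean per colony and time, the 7 time points with colony, and cosine and sine of 24 h with colony or in colony 1 alone. P-values were adjusted by Benjamini-Hochberg across every gene tested, with calls under 0.05. Each SE was taken from the log2 difference and its F statistic, as their ratio after taking the root of F. The tests were tested on simulated counts. Alternatives used RLE scaling, DESeq2 1.42.0, limma 3.58.1 (voom with quality weights), no filter, a replicate block, and libraries left out. The members and the lists were chosen with earlier results of these data known. Named genes are those with the lowest mean difference (12), the highest CPM (5), the smallest p per test and those nearest the limits. The interaction of colony and time was not tested, since the rule used the colony difference at each of its 6 time points.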

Additional observations from a re-analysis of the deposited data

How the results depend on the processing

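Membership depended on the limits and on single libraries. The rule gave 35 genes with a pseudocount of 5 CPM, 34 on 14:00 to 06:00 of day 12 alone, 97 with a mean of at most -0.6 and 28 with at most -0.8. It gave 35 to 75 genes when 1 library was left out, with 35 without 02:00 C2R1, and 39 with TMM-scaled CPM, of which 38 were among the 58. At the first time point 33 to 39 members were called under the other settings, and 29 to 40 with 1 library left out. The colony 2 library of that time cannot be left out. Calls over the 7 time points numbered 0 with RLE scaling (14 at unadjusted p under 0.05), 7 with DESeq2, 17 with limma-voom, and 0 to 5 with 1 library left out (5, or 8.62%, without 06:00 day 11 C1R1 beside 5.65% of all genes, and 4, or 6.9%, without 06:00 day 11 C2R2 beside 5.21%). Cosine calls over both colonies numbered 4 with DESeq2, 1 without a filter on low counts, 4 without the 3 libraries standing apart, and 0 to 4 with 1 library left out (4, or 6.9%, without 06:00 day 11 C2R2, beside 10.6% of all genes). Those in colony 1 numbered 5 with DESeq2 and 3 with limma-voom, and ran from 1 to 4 with 1 library left out, with 1 without 10:00 C1R1, 14:00 C1R1 or 02:00 C1R1. In all these the cause was not tested.

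Whether replicate numbers pair the libraries was not tested. Over 78 pairs of groups the correlation of deviations had a median of -0.0001 and a highest value of 0.386, and 17 were above 0.1. In 9 of 13 groups the closest library elsewhere had the same number. With the replicate block edgeR called 0 members over time (15 at unadjusted p under 0.05) and 0 with a cosine (11 at unadjusted p under 0.05), 33 at the first time point and 4 with a cosine in colony 1.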
